A study of Rattus norvegicus with 88 samples.

Results

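The genes described are Drd1 and Drd2, which encode dopamine receptors, Adora2a, which encodes an adenosine receptor, Ppp1r1b, which encodes the signalling protein DARPP-32, and Penk and Pdyn, which encode the precursors of opioid peptides. They were chosen by name because each marks the projection neurons of the striatum, and all 6 had a row among the 17123 genes measured in the orbitofrontal cortex (OFC). The Ensembl identifiers are ENSRNOG00000023688 for Drd1, ENSRNOG00000008428 for Drd2 and ENSRNOG00000001302 for Adora2a. They are ENSRNOG00000028404 for Ppp1r1b, ENSRNOG00000008943 for Penk and ENSRNOG00000026036 for Pdyn. The question was how the levels of these genes spread over the rats and over the rat batches, whether they moved together, and whether a few rats were high for all of them.

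Poly(A) RNA from OFC dissected out of frozen brain sections on both sides of each rat was sequenced in 80 heterogeneous stock (HS) rats, 41 males and 39 females. HS rats are an outbred stock descended from inbred strains, so each rat has its own genotype, and the animals were untreated, group housed and of an age not used here. Each rat carried a batch number in the labels, which do not say what the number stands for. Batches 2, 3, 4 and 6 had 11, 10, 12 and 8 males with 4, 12, 14 and 8 females, and batch 5 was a single female. Rats are named here by sex and a number that pairs no animals.

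Projection neurons make up most of the neurons of the striatum and fall into a class with Drd1 and Pdyn and a class with Drd2, Adora2a and Penk. The Drd1 receptor raises cAMP and the Drd2 receptor lowers it, and cAMP-dependent kinase turns DARPP-32 into an inhibitor of protein phosphatase 1. In cortex the same genes are active in other cells, among them Drd1, Ppp1r1b and Foxp2 in neurons of deep layers and Penk in interneurons. The OFC lies close to white matter and, further back, to the striatum. In bulk tissue, fewer cells of a type and less RNA per cell cannot be told apart.

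The RefSeq promoter table for assembly GRCr8 held 3 of the 6 genes, Drd1, Drd2 and Pdyn. Their 250 bases before the start given by RefSeq are shown. Drd1 and Drd2 were the pair that moved together most, and Pdyn is the partner of Drd1 in the striatum. The Drd1 window is chr17:10546354-10546603 on the plus strand, the Drd2 window chr8:58605153-58605402 on the plus strand and the Pdyn window chr3:137366504-137366753 on the minus strand. Each is written 5′ to 3′ along the gene, with matches to 3 motifs searched on both strands in capitals.
Drd1: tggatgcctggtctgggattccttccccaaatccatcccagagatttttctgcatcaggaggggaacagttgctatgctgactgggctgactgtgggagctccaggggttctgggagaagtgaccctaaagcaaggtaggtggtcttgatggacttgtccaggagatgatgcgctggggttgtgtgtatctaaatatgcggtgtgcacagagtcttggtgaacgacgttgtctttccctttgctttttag
Drd2: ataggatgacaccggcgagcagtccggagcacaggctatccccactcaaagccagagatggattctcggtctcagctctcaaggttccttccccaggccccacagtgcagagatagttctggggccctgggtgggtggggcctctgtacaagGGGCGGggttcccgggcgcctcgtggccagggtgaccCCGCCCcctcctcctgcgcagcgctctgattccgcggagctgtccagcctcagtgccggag
Pdyn: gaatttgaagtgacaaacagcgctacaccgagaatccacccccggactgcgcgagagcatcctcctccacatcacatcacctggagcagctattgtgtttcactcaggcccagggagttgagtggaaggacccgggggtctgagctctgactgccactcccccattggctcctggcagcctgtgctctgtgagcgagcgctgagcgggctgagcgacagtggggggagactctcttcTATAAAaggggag
The letters GGGCGG of the GC box occurred 2 times in the Drd2 window, once on each strand and beginning 98 and 61 bases before the start. The letters TATAAA of the TATA box occurred 1 time, in the Pdyn window 13 bases before the start, and the letters TGACGTCA of the cAMP response element in none of the windows. Over 33469 promoters of the same length, 30.5% held the GC box letters, 12.9% the TATA box letters and 1.59% the cAMP response element letters. The Drd1 and Drd2 windows thus shared none of these motifs, and a match or its absence says nothing of which factors act there. Whether transcription begins at the RefSeq starts was not checked, so a window, that of Drd1 among them, may hold transcribed sequence.

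Levels are given as normalized counts, which are read counts scaled by the upper quartile of each library, and tests were run on log2(normalized count + 1). Drd1 ranged from 47 to 283 with a median of 86.5 over the 80 rats. Its lowest, median and highest counts were 47, 165 and 283 in batch 2. They were 51, 83 and 152 in batch 3, then 65, 82.5 and 135 in batch 4. Batch 6 had 52, 73.5 and 101. The median of batch 2 lay above the highest rat of every other batch, but the lowest rat of all was also in batch 2.

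Drd2 ranged from 18 to 158 with a median of 55.5, and its batches overlapped throughout. The medians were 90, 56.5, 41.5 and 51.5 in batches 2, 3, 4 and 6. On the log2 scale Drd2 had the widest spread of the 6 genes, with an SD of 0.69 (n = 80). The residual SD after sex and batch, 0.62, was exceeded by that of 9.73% of 1203 genes of like level.

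Adora2a, whose receptor opposes Drd2 signalling in the same striatal neurons, ranged from 39 to 128 with a median of 65.5. Its medians were 70 and 72 in batches 2 and 3 and 59.5 and 56 in batches 4 and 6. Counting error took up 55.1% of its variance after sex and batch, against 15.6% for Drd1 and 12.1% for Drd2, so little of the scatter of Adora2a within a batch could be read. Its residual SD of 0.26 was exceeded by that of 89.4% of 1274 genes of like level.

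Ppp1r1b ranged from 1061 to 3536 with a median of 1848.5. The counts of batch 2, from 2084 to 3536, did not overlap those of batch 4, from 1216 to 2029, or of batch 6, from 1061 to 1679. Batch 3, from 1702 to 2448, also lay wholly above batch 6. The share of all genes whose batches separate in this way is not given here, so these gaps have no background to be read against. The medians were 2638, 1993, 1710 and 1394.5 in batches 2, 3, 4 and 6.

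The peptide precursors had similar medians in every batch. Penk ranged from 1039 to 2578, and its medians were 1713, 1976.5, 1792 and 1858 in batches 2, 3, 4 and 6. Pdyn ranged from 390 to 980, with medians of 697, 698.5, 666.5 and 713.5 in the same order. The spread of both within batches was wide for genes of their level: the residual SD was 0.28 for Penk and 0.30 for Pdyn, against medians of 0.13 and 0.16 over genes of like level. The single rat of batch 5 had 126 for Drd1, 62 for Drd2, 1988 for Ppp1r1b, 60 for Adora2a, 2192 for Penk and 705 for Pdyn, all inside the range of the other rats.

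**Figure D1:**
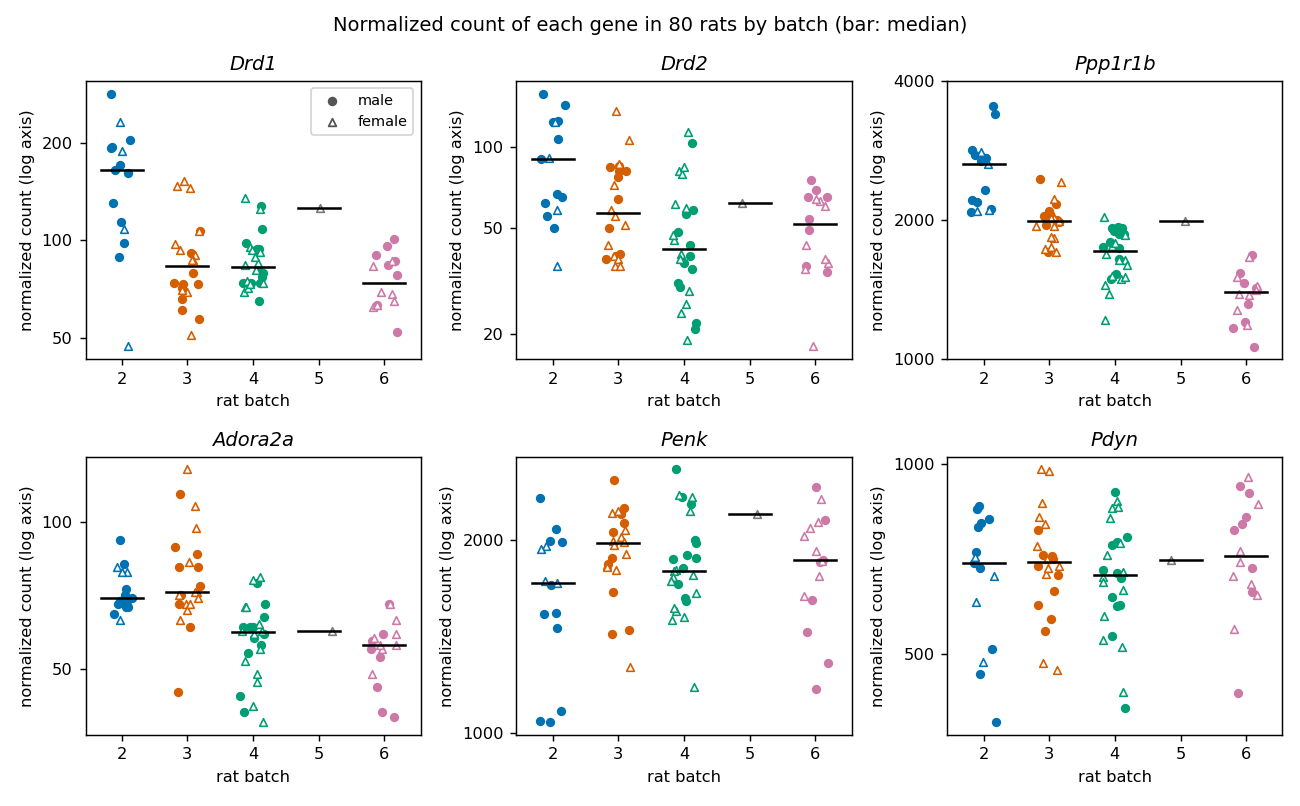
Normalized count (log axis) of each of the 6 genes in each of 80 rats, by rat batch. Filled circles are males, open triangles are females and bars are medians. Batch 2 spans the whole range of Drd1 (47 to 283) and holds the highest Ppp1r1b counts, whereas the batch medians of Penk lie between 1713 and 1976.5 and those of Pdyn between 666.5 and 713.5, leaving out batch 5.

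The skew of the 6 genes went in both directions. Drd1 had a skewness of 0.94 on the log2 scale, and only 0.331% of 14803 genes with a mean of at least 3 were more skewed to high values, against a median of -0.24 over those genes. The 9 highest Drd1 counts, from 161 to 283, were all in batch 2. After sex and batch were removed the skewness of Drd1 was -0.45, with female 2 of batch 2, the lowest rat, at a residual of -1.62. Skewness was 0.29 for Ppp1r1b, 0.20 for Adora2a and 0.03 for Drd2. Penk (-0.86) and Pdyn (-0.60) were skewed to low values, and they remained so after sex and batch (-0.58 each). Of the same 14803 genes, 89.4% had a higher skewness than Penk and 78.6% a higher one than Pdyn. After sex and batch these shares were 81.2% and 81.1%. On the count scale the skewness was -0.32 for Penk and -0.10 for Pdyn, against a median of 0.29 over the same genes. The tail of Penk was of low rats: male 37 with 1039, male 41 with 1043 and male 23 with 1083, all of batch 2.

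None of the 6 genes passed the test for a difference between the sexes. Male minus female differences on the log2 scale were -0.01 ± 0.09 (SE) for Drd1, 0.07 ± 0.14 for Drd2 and -0.06 ± 0.06 for Adora2a. They were 0.08 ± 0.04 for Ppp1r1b, -0.03 ± 0.06 for Penk and -0.02 ± 0.07 for Pdyn, with adjusted p from 0.735 to 0.991 by limma. Over all genes 0.117% passed this test, and 7.14% had an unadjusted p under 0.05. No gene of the 6 had an interaction of sex and batch (adjusted p = 1.00 for each, limma), and 0.00% of all genes passed that test. At the same time 2.63% of all genes, and none of the 6, had an unadjusted p under 0.05.

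Of the 6 genes, 4 differed between rat batches 2, 3, 4 and 6, in a table in which 64.7% of all genes did. The adjusted p of the moderated F test (limma) was 3.48e-19 for Ppp1r1b, 9.75e-08 for Drd1, 1.13e-07 for Adora2a and 0.000424 for Drd2. Penk (adjusted p = 0.181) and Pdyn (0.559) did not pass. A count of 4 of 6 is near the share over all genes, and Ppp1r1b stood out by its place, 107th of 17123 genes by p.

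The 4 genes that differed fell from batch 2 to batch 6. Batch 6 minus batch 2 was -0.97 ± 0.15 (SE) on the log2 scale for Drd1 (adjusted p = 4.95e-08, limma), -0.87 ± 0.07 for Ppp1r1b (2.01e-18), -0.77 ± 0.22 for Drd2 (0.00197) and -0.42 ± 0.10 for Adora2a (0.000158). Over all genes, 26.6% were lower in batch 6 than in batch 2 and 27.2% higher. Penk (0.15 ± 0.10) and Pdyn (0.13 ± 0.11) lay on the other side of 0 without passing.

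The genes stepped down at different batches. Ppp1r1b differed in all 6 pairs of batches, in the order 2, 3, 4 and 6, the step from 3 to 6 being -0.54 ± 0.06 (50.9% of all genes called in that pair) and from 4 to 6 -0.29 ± 0.06 (13.6%). Drd1 was lower in batch 3 than in batch 2 (log2 difference -0.78 ± 0.14, adjusted p = 7.03e-05, limma, with 9.79% of all genes called in this pair), and no pair of batches 3, 4 and 6 passed for it. For Adora2a, batch 3 minus batch 2 (0.07 ± 0.09, adjusted p = 0.719) and batch 6 minus batch 4 (-0.07 ± 0.08, 0.653) missed the threshold, and batch 4 was lower than batch 3 (-0.42 ± 0.08, 5.49e-06, 42.9% of all genes called). Drd2 was lower in batch 4 than in batch 2 (-0.90 ± 0.20, 0.000106, 48.6% called) and in batch 3 (-0.43 ± 0.18, 0.0407), while batch 3 minus batch 2 missed the threshold (-0.47 ± 0.21, 0.140).

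The order of the columns in the table falls into 3 stretches that follow the batches in part, and what the stretches stand for is not stated. Within the first stretch, which holds 14 rats of batch 2 and 7 of batch 3, Drd1 was lower in batch 3 (-1.09 ± 0.23, adjusted p = 0.0285, limma, 1.94% of all genes called). The other 5 genes did not pass there. Within the third, Ppp1r1b was lower in the 16 rats of batch 6 than in the 26 of batch 4 (-0.29 ± 0.06, adjusted p = 0.00103, 13.7% of all genes called). With the stretch as a further term, 2 of the 6 genes differed between batches. Depth also moved with batch, with medians of 16.3, 16.8, 18.9 and 19.3 M (mega) recovered reads in batches 2, 3, 4 and 6, and with log2 depth as a further term 4 of the 6 genes still differed. The share of all genes called with either further term is not given here, so these counts cannot be read as particular to the 6 genes.

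**Figure D2:**
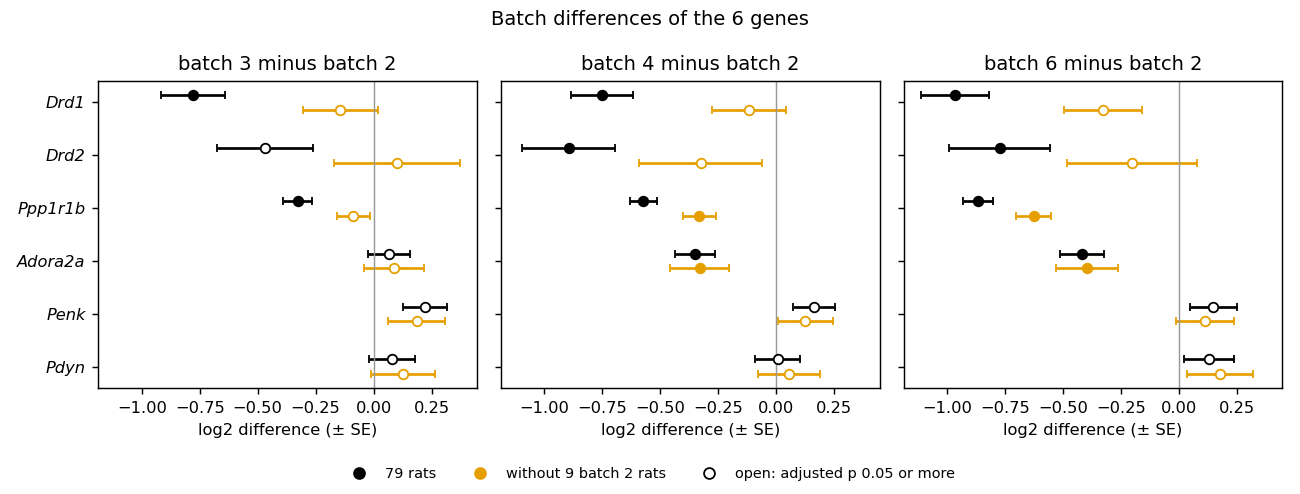
Log2 difference of batches 3, 4 and 6 from batch 2 for the 6 genes, with SE as bars. Black points are all 79 rats of the 4 batches, orange points leave out 9 rats of batch 2, and open points did not reach an adjusted p of 0.05 (limma). The batch 6 difference of Drd1 is -0.97 with all rats and -0.33 without the 9, while that of Adora2a is -0.42 and -0.40. The 9 rats hold the highest Drd1 counts, so a smaller difference of Drd1 without them was fixed by the choice.

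Within batch 2 the rats did not form one group. Foxp2, a transcription factor gene of striatal projection neurons and of deep cortical neurons, had a wide gap between 126 and 266, with 6 rats from 40 to 126 and 9 rats from 266 to 587. This division was noticed in the data and is used here only to give results with and without the 9 rats. The same 9 rats held the highest Drd1 counts of the whole series, ranks 1 to 9 of 80, from 161 to 283, and the other 6 had 47 to 130. They also lay apart from the other 6 in Ppp1r1b (2317 to 3536 against 2084 to 2206), in Mal, a myelin gene (2629 to 3830 against 1584 to 2506), in Syndig1l, a striatum-enriched gene (27 to 49 against 8 to 24), and in Calb1, the calbindin gene of interneurons and other neurons (2125 to 3010 against 3154 to 3990). Drd2 overlapped, with 55 to 158 against 36 to 67. The share of all genes that separate the sets of rats in this way is not given here, so these separations have no background to be read against.

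The 9 rats did not stand out for the other 3 genes. Their Adora2a counts were 65 to 92 against 63 to 82 in the other 6 rats of batch 2, and their ranks ran from 5 to 41 of 80. Their Penk counts, 1043 to 2325, took ranks from 7 to 79, and their Pdyn counts, 464 to 858, ranks from 10 to 76. The summed count of the striatum-enriched genes listed other than Foxp2, 8 genes, was 4523 to 5520 in these rats, 4757 to 6307 in the other 6 of batch 2 and 4523 to 7763 over all 80. Ptpn5 makes up most of this sum, which is 4941 to 5926 in the 9 rats with Foxp2 included. Ptpn5, a striatum-enriched phosphatase gene, was at 2794 to 3455 in them, ranks 63 to 79, and Pde10a, the phosphodiesterase gene of striatal projection neurons, at 210 to 740, ranks 14 to 80.

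Male 23 had the highest Drd1 count and shows the pattern at its fullest. It had 283 for Drd1, 143 for Drd2 (rank 2) and 3401 for Ppp1r1b (rank 2), with 587 for Foxp2 and 3830 for Mal, the highest of the 80 rats. The same rat had 67 for Adora2a (rank 36), 510 for Pdyn (rank 72) and 1083 for Penk (rank 78).

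**Figure D3:**
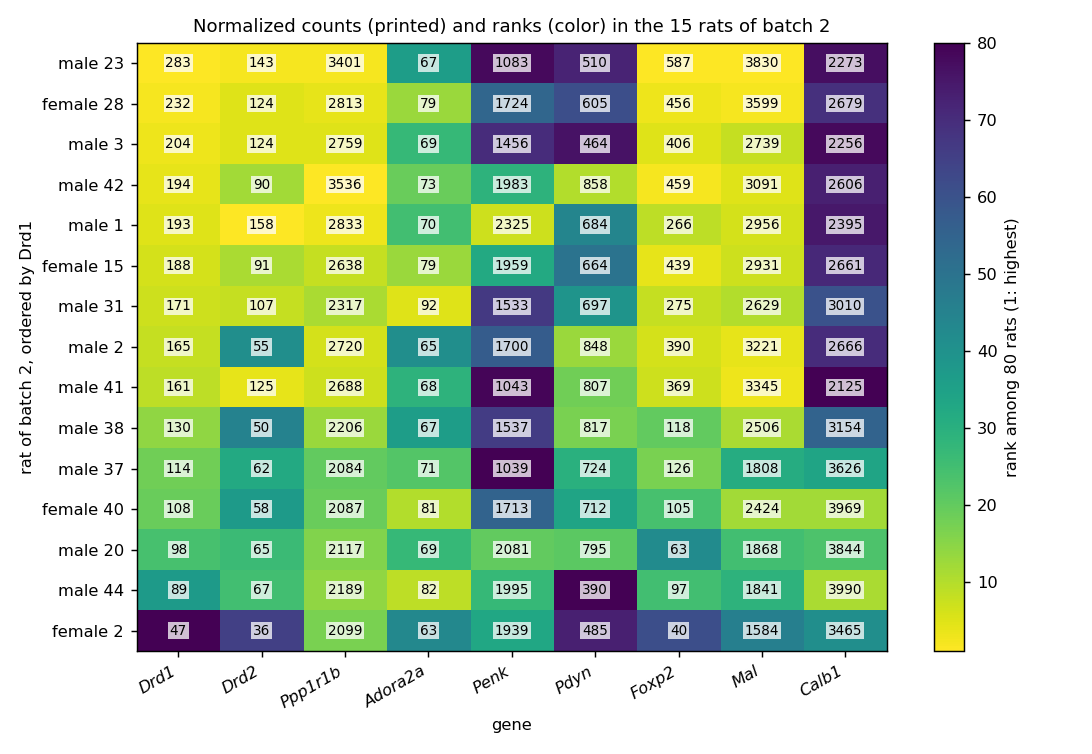
Normalized counts (printed) and ranks among 80 rats (color, 1 is the highest) of the 6 genes and of Foxp2, Mal and Calb1 in the 15 rats of batch 2, ordered by Drd1. The 9 rats at the top hold ranks 1 to 9 for Drd1 and for Foxp2, while their ranks for Penk run from 7 to 79.

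No rat was among the 10 highest for 5 or 6 of the genes. There were 2 rats among the 10 highest for 4 genes and 6 for 3 genes, and 7 of these 8 rats were in batch 2. Male 1 of batch 2 was high for Drd1 (193), Drd2 (158, the highest), Ppp1r1b (2833) and Penk (2325). Female 10 of batch 3 was high for Drd1 (152), Drd2 (106), Adora2a (108) and Pdyn (868), with Ppp1r1b at 2020 (rank 25). These 2 libraries had the most genes at 0 of all 80, 1244 in male 1 and 1628 in female 10, against a median of 509. Male 1 was also the shallowest library, with 5.67 M recovered reads, while female 10 had 20.5 M.

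The 10 highest rats came from different batches for different genes. For Drd1, 9 of the 10 were in batch 2, for Ppp1r1b 8, and for Drd2 6. For Adora2a, where ties made the highest 12 rats, 9 were in batch 3, led by female 5 with 128, male 24 with 114 and female 10 with 108. For Penk, 5 were in batch 4, and for Pdyn, 4 were in batch 6.

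Leaving out the 9 rats ended the calls of Drd1 between batches and those of Drd2 against batch 2, while Drd2 stayed lower in batch 4 than in batch 3 (-0.43 ± 0.17, adjusted p = 0.0348, limma). The 9 rats held ranks 1 to 9 of 80 for Drd1 and 1 to 11 for Ppp1r1b. Smaller differences of these genes from batch 2 were therefore fixed by the choice, and batch 2 was left with 6 rats. Batch 6 minus batch 2 was then -0.33 ± 0.17 for Drd1 (adjusted p = 0.110, limma) and -0.20 ± 0.28 for Drd2 (0.601). It was -0.63 ± 0.08 for Ppp1r1b (7.80e-10) and -0.40 ± 0.13 for Adora2a (0.0126), and these 2 of the 6 genes still passed the F test. Ppp1r1b in batch 3 minus batch 2 was then -0.09 ± 0.07 (0.718), no longer called, and its other 5 pairs were. Over all genes 57.4% passed the F test without the 9 rats. The part that tissue composition had in the difference of the 9 rats was not tested.

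Of the 15 pairs that the 6 genes form, 2 moved together once sex and batch were in the model. Drd2 rose with Drd1 with a slope of 0.81 ± 0.14 (SE) log2 units per log2 unit (adjusted p = 0.000103, limma, n = 80), and 5.16% of all other genes followed Drd1 in one direction or the other. Ppp1r1b rose with Drd1 with a slope of 0.17 ± 0.05 (adjusted p = 0.0175). With Drd2 as the covariate 7.66% of genes were called and Drd1 was the only one of the 5 others, and with Ppp1r1b 2.37% were called and again Drd1 alone. No gene of the 5 others followed Adora2a (0.00584% of all genes called), Penk (1.15%) or Pdyn (0.0117%).

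After sex and batch, Drd1 and Drd2 had r = 0.54 (permutation test, 2-sided p = 1e-05, the smallest that 100000 permutations can give, Benjamini-Hochberg adjusted 0.000245 over 147 relations) and rho = 0.47 (adjusted 0.000588). Without the 2 rats farthest from the median of Drd1, female 2 and male 23, r was 0.50. Within batches r was 0.56 in batch 3 (n = 22, permutation p = 0.00653), 0.62 in batch 4 (n = 26, p = 0.000690) and -0.12 in batch 6 (n = 16, p = 0.669). Batch 2 held 2 sets of rats, in which r was 0.50 (n = 9, exact permutation p = 0.177) and 0.69 (n = 6, exact permutation p = 0.165), while rho was 0.33 (exact p = 0.390) and -0.09 (exact p = 0.919). The set of 6 includes female 2, the lowest of them for both genes (47 and 36). Without the 9 rats r was 0.45 (n = 71, permutation p = 1e-04, adjusted 0.00367), whereas the limma slope of Drd2 on Drd1 was 0.76 and the larger adjusted p of the 2 directions 0.0722. Within batches 3, 4 and 6 taken alone limma did not call this pair, and the difference of the relation between batches was not tested.

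For Drd1 and Ppp1r1b, r after sex and batch was 0.38 (permutation p = 0.000880, adjusted 0.00995) and rho 0.38 (adjusted 0.0131), and r was 0.31 without the 2 farthest rats. Without the 9 rats of batch 2 it was 0.10 (n = 71, permutation p = 0.375), and the slope fell to 0.05 (adjusted p = 0.787, limma). Within batches 3, 4 and 6 r was 0.33, 0.07 and -0.25 (permutation p = 0.138, 0.727 and 0.356). The 9 rats held ranks 1 to 9 of 80 for Drd1 and 1 to 11 for Ppp1r1b. Leaving them out therefore also cuts the range of both genes, and the lower r cannot be read apart from that. Inside the 9 rats r was 0.60 (n = 9, exact permutation p = 0.0889) and rho 0.68 (exact p = 0.0503). Inside the other 6 rats of batch 2 r was 0.28 (n = 6, exact permutation p = 0.657).

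Drd1 and Pdyn, partners in the same striatal class, had r = 0.29 after sex and batch (permutation p = 0.0154, adjusted 0.0921) and rho = 0.28 (adjusted 0.188), and the limma slope of Pdyn on Drd1 was 0.22 ± 0.08 (adjusted p = 0.102). Without the 9 rats r was 0.41 (n = 71, permutation p = 0.00137, adjusted 0.0201) and rho 0.41 (adjusted 0.0351), but limma did not call the pair (adjusted p = 0.0957 and 0.797 in the 2 directions). Within batches r was 0.54 in batch 3 (permutation p = 0.00901), 0.03 in batch 4 (p = 0.872) and 0.63 in batch 6 (p = 0.00760). None of the pairs of the other class passed: r was 0.15 for Drd2 and Adora2a (permutation p = 0.208), -0.20 for Drd2 and Penk (p = 0.0964) and 0.04 for Adora2a and Penk (p = 0.736).

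**Figure D4:**
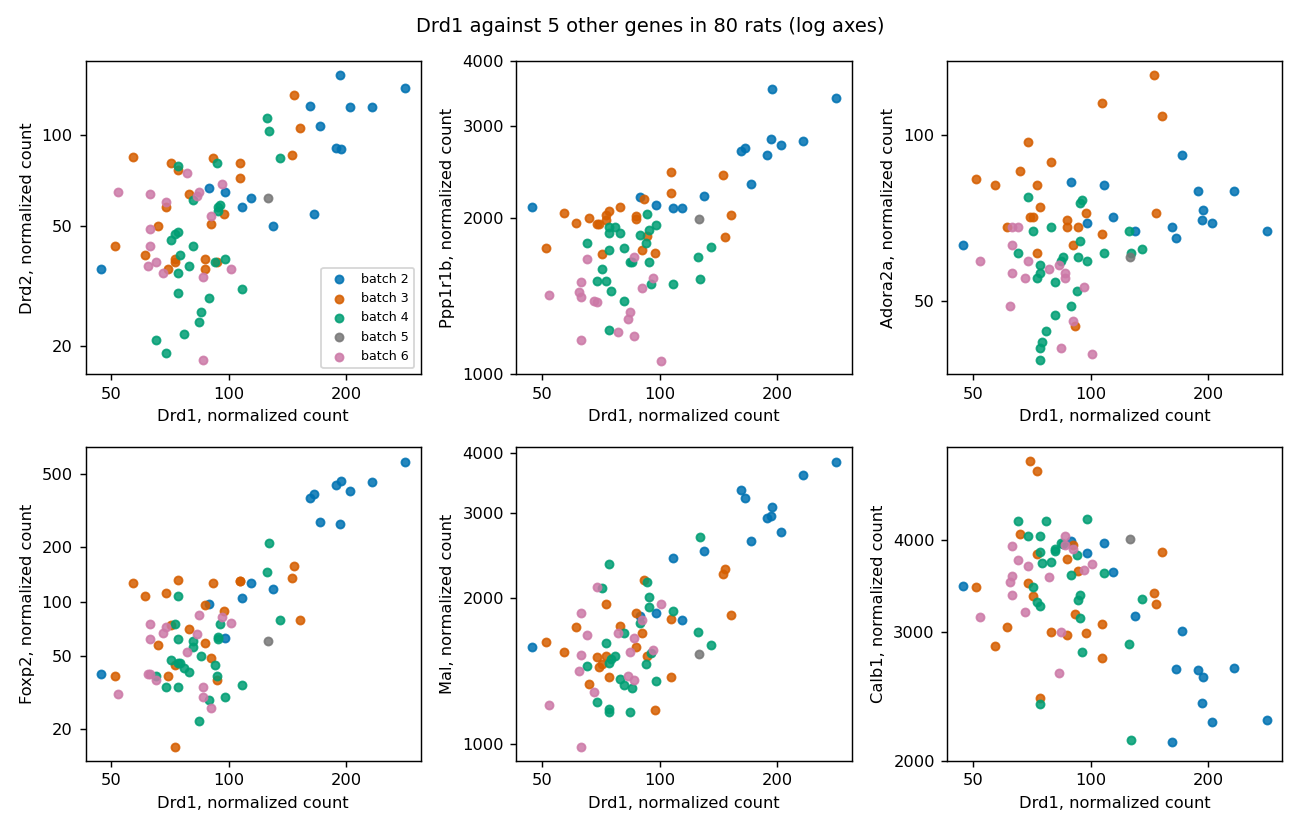
Normalized count of Drd1 against Drd2, Ppp1r1b, Adora2a, Foxp2, Mal and Calb1 in each of 80 rats on log axes, colored by batch; 1 point is 1 rat. The batch 2 rats with Drd1 from 161 to 283 lie apart from the other 6 of batch 2 in Foxp2, Mal and Calb1 and not in Adora2a. Over all 80 rats they hold ranks 1 to 9 for Foxp2, 1 to 10 for Mal and 60 to 80 for Calb1. Rats of other batches lie among them in Mal and Calb1, such as male 25 of batch 4 (ranks 9 and 79).

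Genes from several lists followed the receptors. Of the 9 striatum-enriched genes, Foxp2 and Syndig1l rose with Drd1 and none fell. Foxp2 rose with a slope of 1.25 ± 0.18 (adjusted p = 2.09e-06, limma) and Syndig1l with 0.45 ± 0.14 (0.0487). Both also rose with Drd2, Foxp2 with a slope of 0.94 ± 0.11 (2.46e-09) and Syndig1l with 0.35 ± 0.09 (0.0104). Pde10a, Gng7, Ptpn5, Gpr52, Lrrc10b, Gprin3 and Gpr149 passed with none of the 6 genes. The median slope of the 9 on Drd1 was -0.03, and that of all genes -0.01.

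The myelin gene Mal rose with Drd1 (0.44 ± 0.07, adjusted p = 1.23e-05, limma) and with Drd2 (0.25 ± 0.05, 0.000357). Calb1 fell with Drd1 (-0.24 ± 0.06, 0.0138) and with Drd2 (-0.26 ± 0.04, 9.96e-08). Vip, the peptide gene of a class of cortical interneurons, fell with Drd1 (-0.18 ± 0.06, 0.0498) and with Drd2 (-0.13 ± 0.04, 0.0135). Slc32a1, the vesicular GABA transporter gene, and Neurod6, a gene of cortical glutamatergic neurons, rose with Drd2 (0.10 ± 0.03, 0.0451, and 0.14 ± 0.04, 0.0201), and Ppp3ca, which encodes the catalytic subunit of calcineurin, the phosphatase that acts on DARPP-32, fell with Drd2 (-0.10 ± 0.02, 0.00121). Dlx2, Chat, Slc17a6, Oprd1, Ppp1cb and Csnk2a1 passed with none of the 6 genes.

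Without the 9 rats of batch 2, 4 of the 8 genes that followed Drd2 were still called. They were Foxp2 (0.81 ± 0.11, adjusted p = 2.02e-07, limma), Calb1 (-0.23 ± 0.04, 4.10e-05), Mal (0.20 ± 0.05, 0.0158) and Ppp3ca (-0.09 ± 0.03, 0.0248), with 5.06% of all genes called. Of the 5 listed genes that followed Drd1, none was then called by limma, where 0.0526% of all genes were. Leaving out the 9 rats also removes the 9 highest Drd1 counts and so cuts the range of Drd1. Mal kept a slope on Drd1 of 0.35 ± 0.09 (0.0853) and Foxp2 one of 0.85 ± 0.23 (0.0910), and both passed the permutation test of r (0.43, adjusted p = 0.00441, and 0.42, adjusted p = 0.00612, n = 71), while rho passed for Mal (0.39, adjusted p = 0.0284) and missed the threshold for Foxp2 (0.33, adjusted p = 0.0625). Within batches, r of Drd2 with Foxp2 was 0.69 in batch 3 (permutation p = 0.000370), 0.80 in batch 4 (p = 1e-05) and 0.38 in batch 6 (p = 0.151). For Drd2 and Calb1 it was -0.46 (p = 0.0315), -0.79 (p = 2e-05) and -0.47 (p = 0.0701).

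Penk moved with an interneuron gene and a receptor gene, and none of the 9 striatum-enriched genes followed it. Vip rose with Penk (slope 0.35 ± 0.08, adjusted p = 0.0122, limma), and r after sex and batch was 0.46 (permutation p = 4e-05, adjusted 0.000735) with rho = 0.45 (adjusted 0.000980), or 0.49 without the 2 rats farthest in Penk. Oprl1, the receptor gene of the opioid-like peptide nociceptin, fell with Penk (-0.23 ± 0.06, adjusted p = 0.0406), with r = -0.40 (permutation p = 0.000360, adjusted 0.00529) and rho = -0.38 (adjusted 0.00989). The r of Penk and Vip was 0.55, 0.20, 0.63 and 0.41 within batches 2, 3, 4 and 6 (permutation p = 0.0351, 0.369, 0.000460 and 0.115). The r of Penk and Oprl1 was -0.39, -0.23, -0.40 and -0.59 (p = 0.153, 0.303, 0.0432 and 0.0170), so both kept their sign in every batch. The slope on Penk, with the 9 rats of batch 2 left out, was 0.33 ± 0.08 for Vip (adjusted p = 0.0466, limma) and -0.27 ± 0.07 for Oprl1 (0.0595, no longer past the threshold). Oprl1 still passed the permutation test of r then (-0.43, adjusted p = 0.0107, n = 71) and that of rho (-0.41, adjusted p = 0.0284). Male 35 with the highest Penk count (2578) had 1422 for Vip (rank 7 of 80) and 503 for Oprl1 (rank 69). Male 37 with the lowest Penk count (1039) had rank 29 for Vip and rank 16 for Oprl1. Male 41 with the next lowest (1043) had ranks 73 and 65, so single rats did not always follow these relations.

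**Figure D5:**
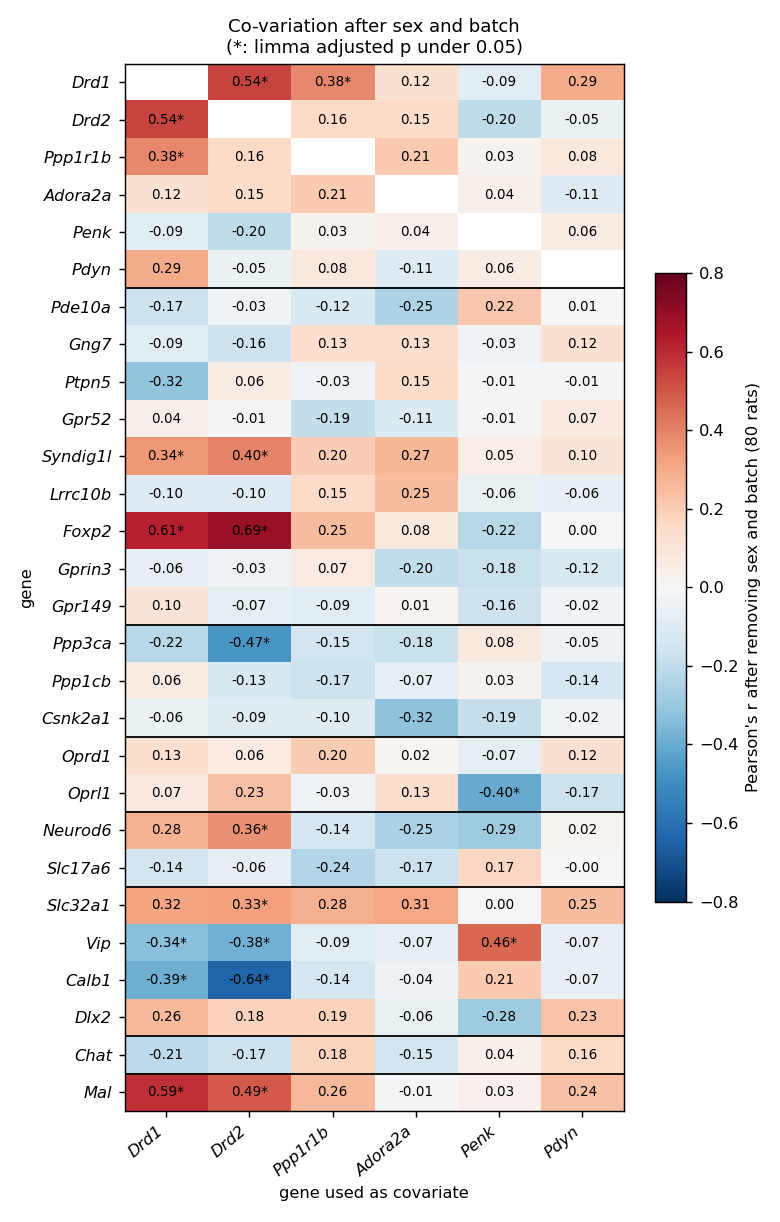
Pearson's r after removal of sex and batch (80 rats) of each of the 6 genes (columns) with each other and with 22 listed genes (rows, lists divided by lines). Asterisks mark an adjusted p under 0.05 in limma. Drd1 and Drd2 share Foxp2 (0.61 and 0.69), Mal (0.59 and 0.49) and Calb1 (-0.39 and -0.64), and the columns of Adora2a and Pdyn hold no asterisk.

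The striatum-enriched genes went in both directions between batches, unlike the 4 genes above, which were all lower in batch 6 than in batch 2. In the F test over batches 7 of the 9 passed, near the share over all genes. Between batches 6 and 2, Foxp2 (-2.05 ± 0.30, adjusted p = 1.10e-08, limma) and Syndig1l (-0.57 ± 0.20, 0.0111) were lower in batch 6. Pde10a (0.83 ± 0.15, 1.42e-06), Ptpn5 (0.40 ± 0.06, 4.68e-09), Gprin3 (0.77 ± 0.26, 0.00786) and Gpr149 (0.36 ± 0.10, 0.00177) were higher. Without the 9 rats those 4 genes were still called, at 0.75 ± 0.19 for Pde10a, 0.31 ± 0.08 for Ptpn5, 1.12 ± 0.33 for Gprin3 and 0.49 ± 0.14 for Gpr149. Syndig1l was at 0.08 ± 0.24 (0.832) and Foxp2 at -0.73 ± 0.34 (0.0719), a smaller difference that the choice of the 9 rats by Foxp2 fixes, and Foxp2 still passed the F test (0.0257). Gprin3 was listed at 0 in 1 library, and no other gene examined was at 0 in any.

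Over all genes, those whose pattern was most like the mean of the 6 genes after sex and batch were ENSRNOG00000000568 (r = 0.61 over 80 rats) and ENSRNOG00000024243 (r = 0.59). Those most opposed were ENSRNOG00000013781 (r = -0.58) and ENSRNOG00000014509 (r = -0.55). These are descriptions, with no test.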

How the data were processed

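Sequencing was of poly(A) RNA from OFC, with rat batch and sex taken from the labels. The authors trimmed reads with cutadapt, counted them with RSEM against the Ensembl transcriptome of Rnor_6.0, scaled them by upper quartile with DESeq2 and deposited log2(count + 1) values. Undone, the deposited log2 values were whole numbers to within a relative 3.98e-06. Of 88 samples described, 8 were marked as removed and are not analysed here. The depth behind the values was recovered from the smallest step between counts: 5.67 to 25.6 M (mega) reads, median 18.1 (recovered within 1% in 20 of 20 simulated libraries). The median library held 86.4 reads of Drd1, 50.3 of Drd2 and 59.8 of Adora2a, and 1688.5 of Ppp1r1b. Intervals from such numbers cover counting error only.

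Tests used limma 3.58.1 in R 4.3.3 with a mean trend on all 17123 genes and Benjamini-Hochberg adjustment over all of them, called below 0.05. Sex was tested with batch as a covariate, the batch difference as a moderated F test over batches 2, 3, 4 and 6 with sex (79 rats), and the slope of each other gene on a gene with sex and batch. A pair counted as moving together if it passed in both directions. Correlations used 100000 permutations, within sex and batch where these had been removed. On simulated data with 200 genes shifted by 1 on the log2 scale, the sex, batch and interaction models recovered 98.5%, 96.5% and 87.5% of them, and with a slope of 1 residual SD per SD of the covariate 100.0% of genes were recovered. Log2 differences understate the change of low genes, since 1 is added. Each library is 1 rat, so p-values measure the spread between rats.

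The members and lists were chosen with earlier results of these data known. By the rule for named genes, the text names the 6 genes, those of the 7 lists, and the 2 genes with the highest and the 2 with the lowest r with the mean of the 6. Names of the 22 other genes, and of 2 of the 6, were read from identifiers paired with symbols in the supplementary tables of the study, so only genes listed there could be taken. The other 4 names come with the choice of genes. Alternatives changed the pseudocount, filter, normalization, weights, covariates and rats. Strand of the counting is not given in the sources used here, so overlapping genes cannot be told apart. Promoters are from RefSeq (GRCr8), no coordinates of which were joined to the table. Other software was matplotlib 3.10.9 for figures, pandas 2.3.3 for tables and numpy 2.4.6 for permutations, under Python 3.11.15.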

Additional observations from a re-analysis of the deposited data

Results flagged for a closer look

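In the 4 females of batch 2, Adora2a of female 2 lay far below the others: its normalized count was 63 against 79 to 81, and the gap on the log2 scale was 0.900 of the whole range of the group. Of 24 groups of sex, batch and gene examined, 1 stood out in this way, and chance flags about 1 in 20 groups. The median library held 59.8 recovered reads of Adora2a.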

How the results depend on the processing

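No paired analysis was possible because the numbers of the rats follow accession order and pair no animals. The counts of genes differing between the sexes and with an interaction were 0 under every alternative run. The count of genes differing between batches was 4, and it was 0 with 20 principal components as further covariates, 2 in females alone, 2 with the column stretch as a further term and 2 without the 9 rats of batch 2 with high Foxp2. The last 2 alternatives, like the log2 depth term and voom weights, were chosen after seeing the data. Except without the 9 rats, the share of all genes called under these alternatives is not given here. The lower counts cannot be read as particular to the 6 genes. With the components the batch 6 minus batch 2 difference of Drd2 was 0.11 and had changed sign. The cause was not tested. The count of pairs moving together was 2, and it was 1 with quantile normalization, 1 without batch 3, 5 with no batch term and 0 with the components, without batch 2, within batch 3, within batch 4, within batch 6 and without the 9 rats. Within batch 6 the slopes on Drd1 were -0.57 for Drd2 and -0.15 for Ppp1r1b, which had changed sign. Leaving out each rat in turn gave 0 to 0 genes for sex and for the interaction, 4 to 4 for batch and 1 to 2 pairs, the slope of Ppp1r1b on Drd1 missing the threshold in 7 of 80 fits. The count of genes with a skewness beyond 0.5 in either direction was 3, and 4 on the count scale. The 3 were Drd1, Penk and Pdyn, and the 4 were Drd1, Drd2, Ppp1r1b and Adora2a. The share of all genes beyond 0.5 is not given here for either scale. The median skewness over 14803 genes was -0.24 on the log2 scale and 0.29 on the count scale. Counting error alone has an SD on the log2 scale of 0.22 for Drd2 and 0.19 for Adora2a, which is 12.1% and 55.1% of their residual variance.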
